A study of Mus musculus with 6 samples.

Results

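The Ly6 cluster on mouse chromosome 15 was described through 8 of its genes, Ly6d, Ly6k, Ly6e, Ly6i, Ly6a, Ly6c1, Ly6c2 and Ly6g, in a chromatin state map of hematopoietic stem cells (HSCs). Members were all segments of the map that overlapped the mm10 record of one of these genes extended by 20 kb on each side (its window), together with the interval that spans the windows, chr15:74742056-75179128. The interval was 437 kb long and held 153 of the 850831 segments of the map, of which 110 touched a window. All 8 genes had a protein-coding record on chromosome 15, among 21779 protein-coding genes used for comparison.

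The series measured the histone variant H3.3 in HSCs of adult bone marrow from C57BL/6 mice with and without HIRA, a chaperone that places H3.3 into chromatin outside replication. Its 6 libraries were 2 H3.3 ChIP libraries and 1 input from wild-type (WT) mice, and 2 H3.3 ChIP libraries and 1 input from HIRA KO mice, in which Hira is deleted conditionally in the hematopoietic system. Mice of both genotypes are labelled with the same treatment: poly(I:C), an inducer of interferon, in 2 doses of 20 ug each, with HSCs sorted 7 days after the first. No untreated mice were among the samples, and what drives the deletion is not stated in the labels. The file analysed was 1 map of the genome in 18 numbered states, in bins of 200 bp, which only its file name ties to WT HSC H3.3. It has no counts, no replicates and no KO column, so its depth is unknown, no test between samples was possible, and every value below is a description of that map. The states carry no names.

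Ly6 genes encode small cysteine-rich proteins, most of them held on the cell surface by a lipid (GPI) anchor, and several serve as antibody targets by which blood cells are sorted. Ly6a encodes Sca-1, the antigen used with Kit to isolate mouse HSCs, and Ly6e encodes a relative that, like Sca-1, is induced by interferon. Ly6d marks progenitors committed to the B cell lineage, Ly6c2 and Ly6g are the genes of the monocyte antigen Ly6C and the neutrophil antigen Ly6G, Ly6c1 is a close relative also used by endothelium, and Ly6k acts in sperm.

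The map at known markers was checked first. A record end lay in states 3, 4, 5 or 6, which cover 1.13% of the genome and hold 50.3% of the annotated transcription starts, for 8 of 8 HSC genes, the first of them Mecom, Hlf, Procr and Fgd5. The count was 0 of 6 for neutrophil and monocyte genes (Elane, Mpo, S100a8 and S100a9 the first), 1 of 4 for B cell genes, 0 of 4 for T cell genes, 0 of 4 for erythroid genes and 0 of 4 for genes of endothelium and stroma. Over all protein-coding genes the share was 47.6%.

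The Ly6 genes fell into 3 stretches of chromosome with different states. Ly6e, Ly6i and Ly6a lay together in a block without state 18, and Ly6c1, Ly6c2 and Ly6g lay whole within state 18. Ly6d and Ly6k lay in a stretch mostly of states 11 and 18, though the Ly6d record itself held only states 17 and 2. Only Ly6e of the 8 members had a record end in states 3 to 6, against 47.6% of protein-coding genes. Here and below, shares of protein-coding genes by record end are over records of any length. The 8 members all have records of up to 5 kb, and these shares were not counted for such short records. The windows held state 1 in 3 of 8 members (34% of protein-coding genes), state 2 in 5 (47.2%), states 9 to 11 in 5 (60.1%), states 12 or 13 in 0 (18.8%), states 14 or 15 in 6 (45.1%), states 16 or 17 in 4 (84.8%) and state 18 in 7 (84%). State 1, state 2 and states 3 to 6 met in the windows of Ly6e, Ly6i and Ly6a, 3 of 8 against 23.8%. These windows overlap, by 20.4 kb for Ly6e and Ly6i and 28.6 kb for Ly6i and Ly6a, so they are not independent counts. Within 20 kb, 4 of 8 members had a bin of states 3 to 6 (Ly6d, Ly6e, Ly6i and Ly6a), against 67.4% of protein-coding genes. For Ly6i the only such bins were those inside the Ly6a record, so the same run counts for both genes. The grouping into 3 stretches was made after the states had been seen.

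**Figure D1:**
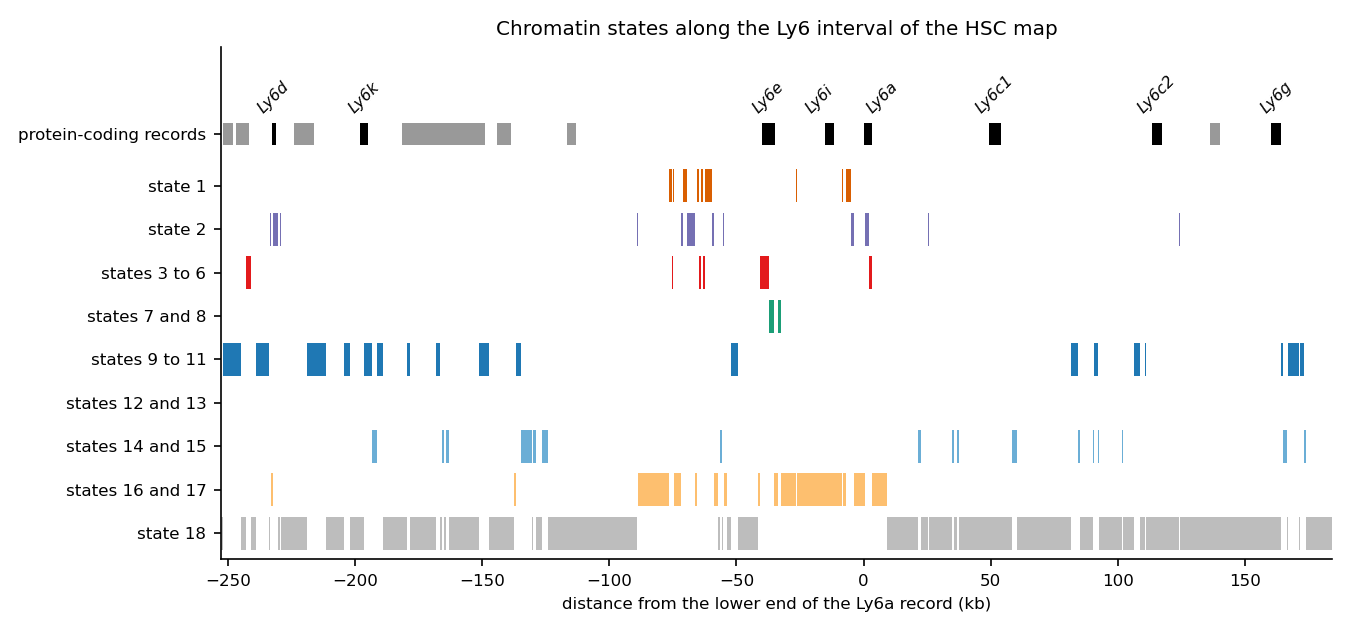
States along the spanning interval, with 1 row per state or group of states, protein-coding gene records on top (members in black, others in grey) and distance from the lower end of the Ly6a record in kb on the horizontal axis. States 16 and 17 and the segments of states 1, 2 and 3 to 6 gather around Ly6e, Ly6i and Ly6a and left of Ly6e, and state 18 fills nearly all of the stretch from Ly6c1 to Ly6g.

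Ly6a, the Sca-1 gene, has a record of 3.15 kb (chr15:74994877-74998031). From its lower to its upper end the record read 0.524 kb of state 17, 1.6 kb of state 2, 0.2 kb of state 6, 0.2 kb of state 4, 0.6 kb of state 6 and a last 0.031 kb of state 17. Both record ends were therefore in state 17, as at Ly6i and in 3.17% of protein-coding genes. Either end was in state 17 for 3 of 8 members (Ly6d, Ly6i and Ly6a), against 26.3%. The upper end lay 31 bp past a run of states 6, 4 and 6 that is 1 kb long (chr15:74997001-74998000). Ly6a thus did not count by its ends, but it did once bins up to 1 kb from an end were taken, which gave 2 of 8 members against 51.8% of protein-coding genes. Ly6e and Ly6a were also the 2 of 8 with states 3 to 6 anywhere in the record, against 56.5% of protein-coding genes with records of any length. All 8 members have records of up to 5 kb, and none of these shares was counted among such short records. The run at Ly6a is made of states 6 and 4, whereas that at Ly6e is made of states 5 and 3.

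State 2 took up 50.7% of the Ly6a record and 64.0% of the Ly6d record, and these were the 2 of 8 members with any state 2 in the record, against 25.4% of protein-coding genes and 3.42% of those with records of up to 5 kb. Ly6a was the 1 member whose record held state 2 and states 3 to 6 together. The share was 21.1% over protein-coding records of all lengths. For records of up to 5 kb it was not counted, but cannot exceed the 3.42% with any state 2. State 2 is a rare state, covering 0.335% of the genome, and its segments have a median length of 0.4 kb. The segment at Ly6a was 1.6 kb long and that at Ly6d 1.8 kb, and 3.93% of all state 2 segments were as long as that at Ly6a. At least 50% of the record lay in state 2 for 11 protein-coding genes, or 0.0505% of them, and for 0.201% of the records of up to 5 kb, a length under which all 8 members fall. That threshold was set after the values of Ly6a and Ly6d had been seen. The other 9 genes were 5 histone genes (H2ac23, H2ac24, H3c14, H3c15 and H4c17), Vpreb1, which encodes part of the pre-B cell receptor, Mzb1, a chaperone gene of antibody-making B cells, Cd52, a lymphocyte surface antigen gene, and Sfi1. Genes of histones have near-identical copies, so their states are uncertain.

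Ly6e had a different order of states. Its record (chr15:74955025-74959904, 4.88 kb) ran through 4 segments of states 5, 3, 5 and 3, then 0.2 kb of state 1, 1.8 kb of state 7 and 0.304 kb of state 16. The run of states 5 and 3 was 3.4 kb long (chr15:74954201-74957600) and began before the lower end of the record. States 3 to 6 made up 7.58% of the window of Ly6e, against 2.32% of the window of Ly6a, 2.28% of that of Ly6i and a median of 2.77% over all protein-coding genes. Ly6e and Ly6i were the only members with state 7 or 8 in the window, with 5.79% and 1.97%, and the windows of these neighbours share 20.4 kb. Over all protein-coding genes 65.1% had state 7 or 8 in the window.

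Ly6i lies between Ly6e and Ly6a. Its whole record of 3.90 kb (chr15:74979534-74983434) was in 1 segment of state 17 that was 6 kb long. A record was whole in state 17 for 1.17% of protein-coding genes and for 3.96% of those with records of up to 5 kb. State 18 was absent from the window of Ly6i (0%), where states 16 and 17 took 83.4%. State 1 made up 6.38% of that window and state 2 made up 5.92%. The longest of its state 1 segments, of 2.2 kb (chr15:74987801-74990000), touched the pseudogene Gm8000 and was followed by 1 kb of state 2. That segment lies 4.37 kb from the record of Ly6i, between it and Ly6a, and is counted in both windows.

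Ly6e, Ly6i and Ly6a thus shared a block of states 1 to 8, 16 and 17 that ran without a break for 50.8 kb (chr15:74953201-75004000). State 17 took 46.1% of the block, state 16 took 29.1%, state 1 took 5.91%, state 2 took 5.12%, state 7 took 3.94%, and states 3 to 6 and 8 took the rest. Blocks of this kind and at least this long held the whole record of 29% of protein-coding genes, so the block itself is not unusual for a gene. The lncRNA record Gm28068 overlaps the segments from between Ly6e and Ly6i through Ly6a to the state 18 segment that holds Ly6c1.

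A second block of the same kind, 31.8 kb long (chr15:74905801-74937600), lay to the left of Ly6e and held no protein-coding record. It overlapped the pseudogene Gm6610 and the lncRNA Gm39556, and its near edge was 17.4 kb from Ly6e and its far edge 24.1 kb from Ly6m. State 1 made up 23.3% of this block and state 2 made up 15.7%, so it held 7.4 kb of the 10.4 kb of state 1 in the interval. It also held 3 segments of state 5, of 0.4, 0.8 and 1 kb, each with state 1 on both sides. In the whole genome 16 of 16512 segments of state 5 had state 1 on both sides, which is 0.0969%, so these 3 were 3 of the 16. They were 35.0, 24.2 and 22.4 kb from the record of Ly6e, and 11.3% of all runs of states 3 to 6 lie over 10 kb from any protein-coding record. This pattern was looked for after the segments of the interval had been seen.

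States 1 and 2, both rare in the genome, were therefore dense in the interval. State 1 covered 2.38% of it, against 0.259% of the genome and 0.289 ± 0.0675% (mean and SD of the shares of 19 whole autosomes). This SD is a spread between whole chromosomes and does not describe the spread between stretches as short as the interval. State 2 covered 2.52%, against 0.335% of the genome and 0.362 ± 0.0669% over the autosomes. Among 5878 tiles of the genome of the same length, 1.19% held at least this share of state 1, and 0.732% at least this share of state 2. State 5 covered 1.007%, a share that 6.14% of the tiles reached. The tiles were not planned and were counted for states 1, 2 and 5 only. These states were picked after the shares of the interval had been seen, so the tile percentages describe a selected set. State 8, which covered 5.23% of the genome, covered 0.137% of the interval in 1 segment of 0.6 kb, and states 12 and 13 were absent.

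**Figure D2:**
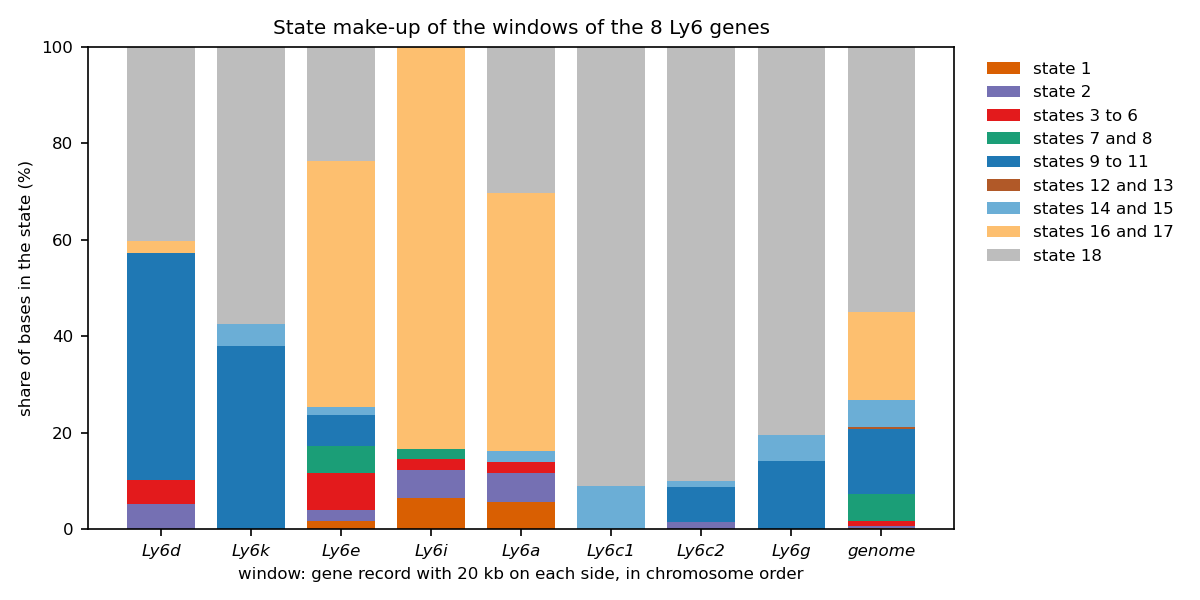
Stacked bars of the share of bases in each state or group of states (%) for the windows of the 8 members, in chromosome order, with the whole genome as the last bar. Ly6i has no state 18, Ly6c1 has 91.1% and Ly6c2 90.0%, and the share of states 9 to 11 is highest at Ly6d (47.2%) and Ly6k (37.9%).

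Ly6c1 and the monocyte and neutrophil genes Ly6c2 and Ly6g were in state 18 in the map. The records of Ly6c1 (chr15:75044018-75048920), Ly6c2 (chr15:75108161-75112066) and Ly6g (chr15:75155261-75159128) lay whole within state 18 segments of 20.6, 12.8 and 39.8 kb. A record was whole in state 18 for 9% of protein-coding genes and for 27.5% of those of up to 5 kb. Both record ends were in state 18 for the same 3 of 8 members, against 13.6% of protein-coding genes with records of any length. For records of up to 5 kb this share was not counted, but it cannot be below the 27.5% whole in state 18. State 18 took 91.1% of the window of Ly6c1, 90.0% of that of Ly6c2 and 80.4% of that of Ly6g, and it reached 80% of the window in 8.27% and 60% in 21.2% of protein-coding genes, in each case with these 3 as the only members. None of the 3 windows held state 1, states 3 to 8, state 16 or state 17. The nearest run of states 3 to 6 was that at Ly6a, 46.0 kb from the record of Ly6c1, 110.2 kb from that of Ly6c2 and 157.3 kb from that of Ly6g.

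The window of Ly6c2, unlike those of Ly6c1 and Ly6g, held a lone state 2 segment of 0.6 kb (chr15:75118801-75119400), 6.74 kb past its record with state 18 on both sides. The window of Ly6a2, the next gene along, holds the same segment. In the genome 22.5% of the borders of state 2 are with state 18 and 49.4% with state 17. The windows of Ly6c1, Ly6c2 and Ly6g share no bases. Those of Ly6c2 and Ly6g both hold part of the same state 18 segment of 39.8 kb, so they are not independent. The state shares of Ly6c1, Ly6c2 and Ly6g differed by 17.3 to 32.8 percentage points in sum over the 18 states. By the same sum Ly6a differed from each of them by 134.1 to 135.0 points and from Ly6e by 54.9 points, and Ly6i differed from Ly6c1 and Ly6g by 200 points, the highest value possible.

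RefSeq promoter sequences (GRCm38.p6, the assembly of mm10, 250 bases before to 50 after a start) were at hand for 3 of the 8 members, Ly6c1, Ly6c2 and Ly6g, with 2 starts each. All 6 starts were in state 18. They lie inside the 3 records already given as whole in state 18, so this is no separate result. Of the 21263 promoters of protein-coding genes, 18.1% had the start in state 18. The promoters of Ly6c1 (chr15:75048788-75049087, minus strand) and Ly6g (chr15:75155011-75155310, plus strand) are shown because both hold a TATAAA match, marked in capitals.
Ly6c1: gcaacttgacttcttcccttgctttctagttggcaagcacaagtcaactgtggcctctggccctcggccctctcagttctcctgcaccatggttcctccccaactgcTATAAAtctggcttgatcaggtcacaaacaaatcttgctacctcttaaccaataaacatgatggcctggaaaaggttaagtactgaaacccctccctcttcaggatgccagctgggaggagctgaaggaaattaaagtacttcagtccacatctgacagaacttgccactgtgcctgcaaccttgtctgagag
Ly6g: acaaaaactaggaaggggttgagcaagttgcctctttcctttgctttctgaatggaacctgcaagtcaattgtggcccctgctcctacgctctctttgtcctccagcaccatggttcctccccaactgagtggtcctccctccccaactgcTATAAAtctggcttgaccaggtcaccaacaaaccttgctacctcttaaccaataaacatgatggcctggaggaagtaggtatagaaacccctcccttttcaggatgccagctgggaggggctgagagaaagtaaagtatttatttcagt

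These promoters had 1 CpG site each and a GC content of 49.0% and 48.7%, and the 6 windows of members held 0 or 1 CpG sites. The median was 2 CpG sites for promoters with the start in state 18, 22 for those in states 3 to 6 and 13 for all promoters. TATAAA, searched on both strands, was found in 24.3% of promoters in state 18, 5.92% of those in states 3 to 6 and 12.6% of all. The match was at position -143 from the start in Ly6c1 and -99 in Ly6g, from the outermost listed start. The GATA letters AGATAA and TGATAA, the STAT letters TTCNNNGAA, the interferon-response element ISRE, and the ETS letters CCGGAAG, each on both strands, were in none of the 6 windows. They were in 28.6%, 10.2%, 4.10% and 2.15% of promoters with the start in state 18, and in 15.9%, 7.69%, 3.35% and 11.6% of all promoters. Other spellings of these sites were not searched, so their absence from the windows is not shown. TGTGGT, letters bound by RUNX factors, was matched on the other strand in both windows of Ly6c2, 1 match that the windows share. It was found in 22.1% of promoters in state 18 and in 15.0% of all promoters.

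**Figure D3:**
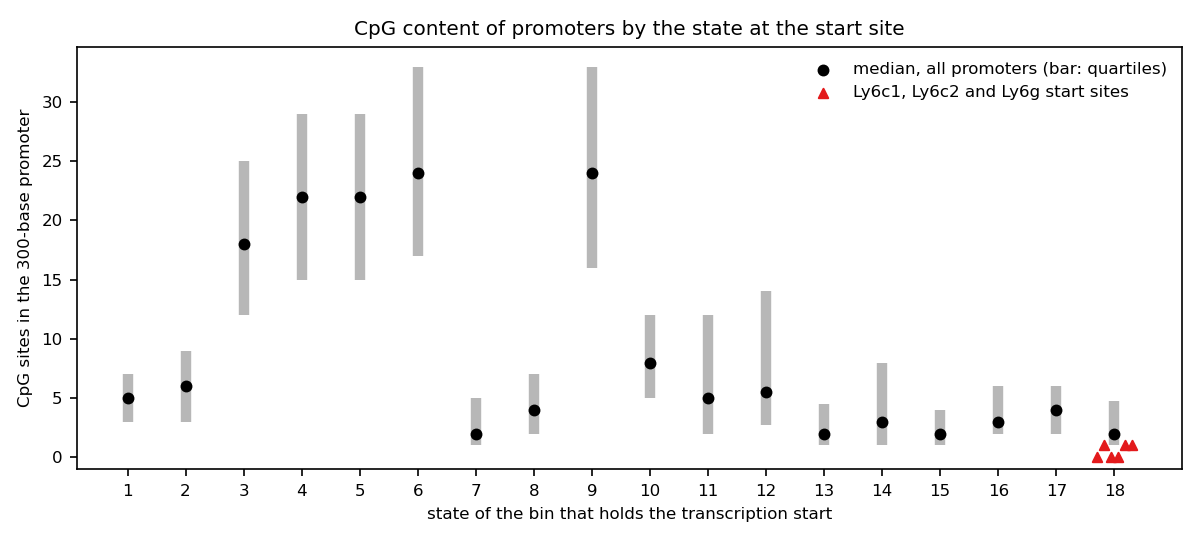
CpG sites per 300-base promoter (vertical axis) by the state that holds the transcription start (horizontal axis), with the median as a dot and the quartiles as a bar over all protein-coding promoters. Triangles are the 6 start sites of Ly6c1, Ly6c2 and Ly6g, all in state 18 with 0 or 1 CpG sites.

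Ly6 genes arose by duplication, and copies that share sequence bear on how a state at one of them can be read. Ly6a2, a neighbour of Ly6c2 that is no member, had a promoter 97.0% identical to that of Ly6c2 over 300 aligned positions, with up to 142 identical bases in a row. The pair is printed to show how little sets the copies apart. Both are on the minus strand, Ly6a2 at chr15:75135079-75135378 and Ly6c2 at chr15:75111922-75112221, and capitals mark bases that differ from the other copy or are missing in it.
Ly6a2: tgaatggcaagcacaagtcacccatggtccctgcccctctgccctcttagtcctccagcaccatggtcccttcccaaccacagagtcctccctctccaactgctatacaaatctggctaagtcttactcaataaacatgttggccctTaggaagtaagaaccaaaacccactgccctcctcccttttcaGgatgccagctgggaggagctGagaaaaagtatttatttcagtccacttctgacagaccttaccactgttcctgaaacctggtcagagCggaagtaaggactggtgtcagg
Ly6c2: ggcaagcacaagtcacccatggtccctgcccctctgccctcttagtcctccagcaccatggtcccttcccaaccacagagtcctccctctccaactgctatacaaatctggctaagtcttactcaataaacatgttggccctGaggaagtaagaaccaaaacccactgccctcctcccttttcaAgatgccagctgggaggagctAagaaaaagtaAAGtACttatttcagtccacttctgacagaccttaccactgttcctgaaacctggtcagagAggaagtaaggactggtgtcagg

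Ly6a2 also lay in state 18, at both ends and over 98.6% of its window. Ly6c1 and Ly6c2 promoters were 74.8% identical, Ly6c1 and Ly6g 76.9%, and Ly6c2 and Ly6g 71.3%. The labels do not say how reads that match both copies were counted, and the part of shared sequence in the state 18 calls was not tested. The states of Ly6c2 and Ly6a2 are therefore uncertain.

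Ly6d and Ly6k, on the far side of the interval, had the largest window shares of states 9 to 11 among the 8 members. State 11 alone made up 47.2% of the window of Ly6d and 37.9% of that of Ly6k, against a median of 3.02% over gene windows. The record of Ly6k (chr15:74796874-74799968, 3.10 kb) was 42.9% state 18 and 57.1% state 11, which made it the 1 member of 8 with an end in states 9 to 11, against 23.9% of protein-coding genes. The record of Ly6d (chr15:74762056-74763567, 1.51 kb) held 0.545 kb of state 17 and 0.967 kb of state 2. With an end in state 2 it was 1 of 8 members, against 0.955% of protein-coding genes. A state 2 segment of 0.2 kb stood on each side of Ly6d, set off by state 18, and state 11 followed on both sides beyond further state 18. The nearest run of states 3 to 6 was 8.26 kb from Ly6d, at the upper end of Lynx1, a modulator of nicotinic receptors.

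A list of 37 further genes of the Ly6 superfamily, chosen by name, was counted in the same way. It does not hold every Ly6 gene: Ly6a2, with both ends in state 18, and Ly6g6g, with ends in states 18 and 11, lie in the interval and are not in it. States 3 to 6 were found at an end of 5 of the 37 (13.5%), states 9 to 11 at an end of 16, and state 18 at both ends of 9. Over all protein-coding genes, with records of any length, these shares were 47.6%, 23.9% and 13.6%. The 5 were Lynx1, Pinlyp, Lypd6 and the complement inhibitor genes Cd59a and Cd59b, with ends in states 4, 4, 4, 5 and 6. Of the 13 listed genes on chromosome 15, 1 had an end in states 3 to 6 and 7 had both ends in state 18: Slurp1, Lypd2, Gml, Ly6m, Ly6g2, Ly6f and Ly6l. Psca and Gpihbp1, which carries lipoprotein lipase in capillaries, had both ends in state 17, as Ly6a and Ly6i did. None of the 37 had an end in state 2. The neutrophil antigen gene Cd177 had ends in states 18 and 11, and the urokinase receptor gene Plaur had states 16 and 17 at its ends. State 18 took a median of 46.5% of the windows of the 37 genes and 48.9% of those of the 8 members, against 26.4% over all protein-coding genes.

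Ly6a was set beside other surface genes by which HSCs are recognised. Of 17 such genes, 16 had an end in states 3 to 6, with ends in states 6 and 7 for Kit, 5 and 16 for Cd34, 17 and 5 for Flt3, and 5 and 8 for Slamf1. Cd48 had ends in states 2 and 18, and all 17, Cd48 included, had states 3 to 6 within 1 kb of an end, as did Ly6a. State 18 took a median of 2.31% of the windows of these genes and 30.2% of that of Ly6a. In the SLAM cluster, another array of related surface genes around an HSC marker, 2 of 9 genes had an end in states 3 to 6 (Slamf1 and Ly9), 0 had both ends in state 18, and state 18 took between 0% and 63.7% of a window. The difference between the lists was not tested.

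**Figure D4:**
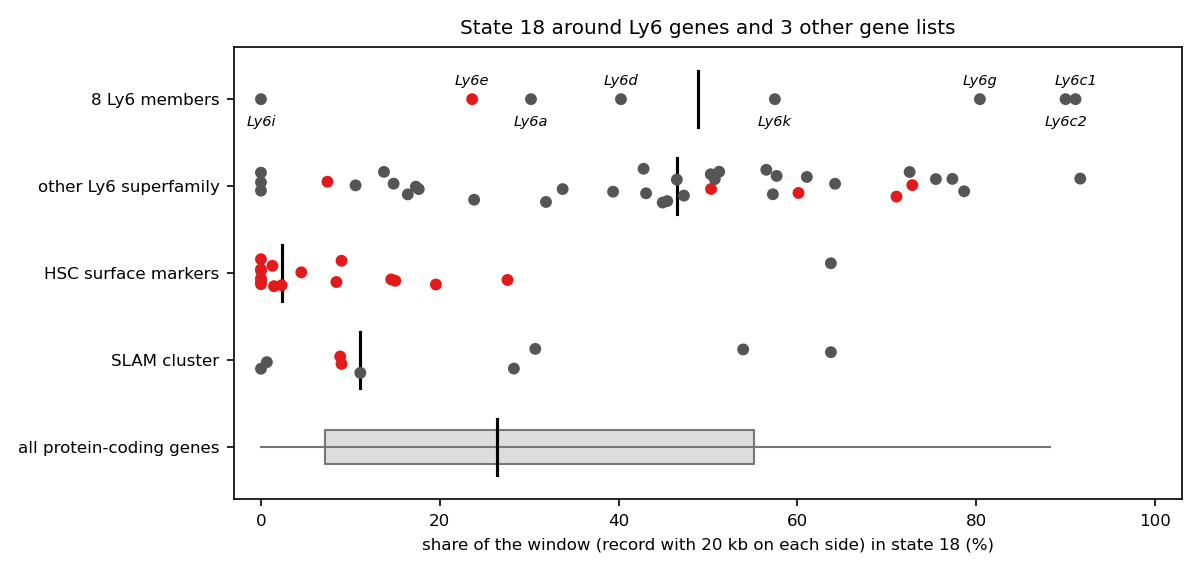
Share of each gene's window in state 18 (%), with 1 point per gene, red where a record end is in states 3 to 6, and a black line at each list's median. The 8 Ly6 genes spread from 0% at Ly6i to 91.1% at Ly6c1, and the bottom row gives all protein-coding genes as median (26.4%), quartiles (box) and 5th to 95th percentile (line).

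The genes outside the interval whose windows were most like that of Ly6a, by the sum of absolute differences over the 18 state shares, were Tnp2, a sperm chromatin gene (16.4 percentage points), Arl11 (17.9) and Ccr2, a chemokine receptor gene of monocytes (21.5). The median over all genes was 105.2. All 3 windows held states 16 and 17 over 48.4 to 61.2%, with state 1 and state 2, and of the 3 only that of Tnp2 held states 3 to 6. Most like Ly6e were Cd24a, a surface antigen gene of blood progenitors (29.6), Klhl9 (30.9) and Exoc3l4 (31.05). Most like Ly6c2 were Klra9, a receptor gene of NK cells (1.88), Prss32 (2.73) and Cldn16 (2.73), each with both ends in state 18 and state 18 over 90.0 to 90.4% of the window. Likeness here rests on 1 map and 18 shares.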

How the data were processed

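Per the labels' protocols, HSC chromatin was digested with micrococcal nuclease and H3.3 was precipitated with a rat monoclonal antibody. Tools named without version or role in the submitters' processing notes are Bowtie2, HOMER, MACS2 and deepTools, and the build is mm10. The deposited files hold a state number per segment, in a dense and an expanded version, with states ordered by emission, per the file headers. Neither the input tracks of the model nor what each state emits was stated in the labels or headers. Both files gave the same state in 100% of bins.

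Segments were read into bins of 200 bp and intersected with RefSeq gene records (GRCm38.p6) in Python 3.11.15 with pandas 2.3.3 and numpy 2.4.6. Of 21900 protein-coding genes, 121 were left out because they start within the first 3 Mb of a chromosome or lie off the map. Records carry no strand, so both ends were used, and starts were taken only where the promoter table gave them. A segment counted with 1 overlapping base, and shares used clipped lengths. Promoters were aligned pairwise with free end gaps in Biopython 1.88, from the outermost start of each gene. Tiles started at 3 Mb. Counting was tested on simulated data. No test between groups was run. Members and gene lists were chosen with earlier results of these data known. Named genes were the members, the Ly6 superfamily list, records touching the interval, the 3 genes most like Ly6a, Ly6e and Ly6c2, and the first 4 of other lists. Genes named beside the 50% state 2 threshold and in other counts were chosen after their values were seen. Protein sequences were not used here.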

Additional observations from a re-analysis of the deposited data

How the results depend on the processing

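Of 50 alternative values, 10 came from the expanded file, which holds the same states and could not differ. Of the other 40, 29 stayed within 1.5 times for a count, or within the 95% Wilson interval of the bins for a share, and 11 moved. A reversal of direction was not scored. The Wilson interval treats bins as independent, which neighbouring bins of a segment are not, so it served only as a cut-off. The members with states 3 to 6 rose from 1 to 2 when bins up to 1 kb from an end were taken and to 2 with any bin of the record, in both cases through Ly6a. The SLAM cluster count rose from 2 to 5 and 7 under the same settings. Members with states 3 to 6 in the window were 4 at 20 kb, 2 with no flank and 2 with 5 kb. The share of the interval in states 9 to 11 was 12.3%, 8.92% without flank, 6.96% from Ly6e to Ly6g and 14.2% over the windows alone. From Ly6e to Ly6g state 18 took 66.1% in place of 61.9%, and states 16 and 17 took 16.8% in place of 13.4%. These follow from which bases are counted. With tiles moved along by 50% of their length, an alternative chosen after seeing the data, 1.18% held as much state 1 and 0.818% as much state 2. With 1-bin segments replaced, also chosen after seeing the data, 16 segments of state 5 again lay between state 1, of which 7 were the same ones, including the 3 near Ly6e. No paired analysis was possible because the map has no values per replicate, which also means that leaving out a replicate could not be done. Depth is unknown, and 1 bin of 200 bp decides calls such as that at Ly6a.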

Other observations

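Between Ly6k and Ly6e the interval holds the adrenal steroid enzyme genes Cyp11b1 and Cyp11b2, with both ends of each in state 18, and state 18 over 71.7% and 66.3% of their windows. The longest state 18 segment on that side, of 35.2 kb, covers Ly6m and ends at the state 1 and state 2 block left of Ly6e. The interval held 1 segment of state 9, of 1.8 kb (chr15:75085401-75087200). It touched no gene record and lay 21.0 kb from the record of Ly6c2, with state 14 and state 15 at its borders.

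The other 13 of the 16 state 5 segments that lie between segments of state 1 were on 11 other chromosomes and at Acvrl1 on chromosome 15. Of these, 10 overlapped a protein-coding record, among them a segment of 1.6 kb at Csf3r, the receptor gene for the granulocyte growth factor. The segment farthest from a protein-coding record was 361.0 kb from Prl5a1. These genes were named after their values were seen.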
